A study of Mus musculus with 76 samples.

Results

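Fatty acid oxidation and PPAR-alpha target genes form a set of 38 genes, chosen by name from the 54232 genes of the count table and followed across 3 tissues and 5 arms. The set holds 8 genes of fatty acid uptake, activation and the carnitine shuttle, 11 mitochondrial beta-oxidation enzymes, 3 genes of the electron transfer flavoprotein, 5 peroxisomal genes, the 2 receptors Ppara and Ppard, and 9 other genes known as targets of these receptors. RNA was sequenced from heart, kidney and visceral adipose tissue (visceral fat) of male Fox Chase SCID mice (CB17/Icr-Prkdcscid/IcrlcoCrl) aged 12 weeks, which lack working T and B lymphocytes, to study adipose Na/K-ATPase signalling in uremic cardiomyopathy, the heart disease of kidney failure. All mice carried the Prkdcscid allele, the Sham mice too. In the NaKtide-cell arm, mice had partial nephrectomy and a transplant labelled Lenti-adipo-NaKtide, in which NaKtide is a peptide that blocks the Na/K-ATPase from activating the kinase Src. In the scrambled-cell arm the transplant was labelled Lenti-adipo-scrambled, and in the control-cell arm it was labelled Control Cells, both after partial nephrectomy. The PNx arm had partial nephrectomy, removal of part of the kidney mass, with no transplant, and the Sham arm had sham surgery with no transplant. The labels do not describe the transplanted cells, their number or the time between surgery and tissue collection.

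Cells oxidise fatty acids after taking them up, joining them to coenzyme A and passing them into the mitochondrion as carnitine esters, where a cycle of dehydrogenases, hydratases and thiolases shortens them and hands electrons to the respiratory chain through the electron transfer flavoprotein. Very long chains are shortened first in the peroxisome. PPAR-alpha (Ppara) and PPAR-delta (Ppard) are nuclear receptors that fatty acids activate, and they raise the transcription of many of these genes as partners of the retinoid X receptor. The heart and the proximal tubule of the kidney draw most of their energy from this pathway, while white fat mainly stores and releases the fatty acids.

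The 76 libraries made 74 samples, since a second library of Kidney Sham 3 and of visceral fat scrambled cells 3 was added to its partner, and each group held 5 samples except visceral fat scrambled cells, with 4. Total counts per library ran from 1241590 to 20037187, with medians of 8495773 in heart, 9245410 in kidney and 7807674 in visceral fat. Separate mice are not stated for the samples of a group, so p-values measure the spread between these samples, which may be technical. Levels within a tissue are counts scaled to library size (CPM), and calls rest on p-values adjusted over all genes of a comparison, with a threshold of 0.05. Counts of members called by DESeq2, an alternative method, stand without its share over all genes. They are not set against the shares printed near them, which are edgeR's. Defining markers of each labelled tissue were present: cardiomyocyte markers summed to 23470 to 55220 CPM in heart, proximal tubule markers to 7592 to 26630 CPM in kidney and adipocyte markers to 1197 to 14610 CPM in visceral fat. Some libraries stood apart. A gene-length index (mean log2 CPM of the shortest 25% of genes minus that of the longest 25%) was -0.002 to 0.17 in Kidney PNx 3, 4 and 5 and 0.25 and 0.26 in Kidney control cells 4 and 5, against -0.99 and -1.08 in Kidney PNx 1 and 2 and -1.11 to -0.93 in Kidney Sham. It was 0.22 and 0.07 in Heart Sham 2 and 3, against -1.14 to -0.09 in the other hearts, of which PNx 1 was highest. In visceral fat it was -0.30 in PNx 2 and -0.26 in NaKtide cells 1, against -1.54 to -0.53 in the others. Proximal tubule markers (9 of 9 with counts) summed to 1064 and 3297 CPM in Heart Sham 2 and 3, and to 6.97 to 87.4 CPM in the other hearts. Skeletal muscle markers (9 of 9 with counts) summed to 612 to 47040 CPM in the 4 scrambled-cell samples of visceral fat and to 10870 CPM in its Sham 3, and to 8.13 to 90.4 CPM in the others. Epididymis markers (5 of 5 with counts) summed to 75.6 to 6351 CPM in visceral fat Sham and to 0 to 27.4 CPM in its other arms. In these bulk samples, fewer cells of a type and less RNA per cell cannot be told apart.

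Upstream sequences are shown because their genes changed in the kidney: Cpt1a, Cd36 and Ppara, which fell after partial nephrectomy, and the neighbours Acot1 and Acot2, which rose. Each is the 250 bases before the gene's annotated start in RefSeq on GRCm38.p6, written 5′ to 3′ on the gene's strand, and capitals mark TGACCT, the reverse complement of AGGTCA, the motif that PPAR and retinoid X receptors bind. The windows are chr19:3323051-3323300 (plus strand) for Cpt1a, chr5:17835897-17836146 (minus strand) for Cd36, which has several annotated starts, chr15:85735526-85735775 (plus strand) for Ppara, chr12:84009252-84009501 (plus strand) for Acot1 and chr12:83987611-83987860 (plus strand) for Acot2. Those of Cpt1a, Cd36 and Ppara lie inside the genes as GENCODE annotates them (coordinates below). They precede the RefSeq start used here but not the GENCODE start.
Cpt1a: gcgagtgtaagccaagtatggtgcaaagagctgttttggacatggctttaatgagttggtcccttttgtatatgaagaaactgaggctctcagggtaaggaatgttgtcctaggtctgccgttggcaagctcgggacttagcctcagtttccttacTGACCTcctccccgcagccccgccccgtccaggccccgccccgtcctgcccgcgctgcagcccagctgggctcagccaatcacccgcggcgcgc
Cd36: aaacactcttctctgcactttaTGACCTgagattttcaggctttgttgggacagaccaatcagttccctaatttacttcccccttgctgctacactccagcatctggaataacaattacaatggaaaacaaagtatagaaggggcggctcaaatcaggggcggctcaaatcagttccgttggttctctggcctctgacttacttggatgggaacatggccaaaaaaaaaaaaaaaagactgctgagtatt
Ppara: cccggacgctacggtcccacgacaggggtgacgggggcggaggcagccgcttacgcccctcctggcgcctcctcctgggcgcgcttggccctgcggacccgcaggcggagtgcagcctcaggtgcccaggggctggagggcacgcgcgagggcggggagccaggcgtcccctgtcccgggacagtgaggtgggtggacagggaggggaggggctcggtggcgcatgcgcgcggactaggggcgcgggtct
Acot1: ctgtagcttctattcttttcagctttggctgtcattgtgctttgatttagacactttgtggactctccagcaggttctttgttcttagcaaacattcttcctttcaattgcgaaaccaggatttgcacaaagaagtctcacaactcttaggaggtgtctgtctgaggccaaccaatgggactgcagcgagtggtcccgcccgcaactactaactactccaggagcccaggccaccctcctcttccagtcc
Acot2: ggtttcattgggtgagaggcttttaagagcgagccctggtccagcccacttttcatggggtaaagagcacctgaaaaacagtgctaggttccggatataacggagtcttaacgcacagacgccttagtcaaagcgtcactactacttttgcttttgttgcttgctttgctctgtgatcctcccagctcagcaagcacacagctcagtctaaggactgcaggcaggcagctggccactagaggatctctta
The motif started 94 bases before the RefSeq start of Cpt1a and 228 bases before that of Cd36, and neither strand of the Ppara, Acot1 and Acot2 windows held it. The windows of Ppard and Ucp2, which also rose, did not hold it either. Searched on both strands, AGGTCA was present in the windows of 6 of the 30 members with an upstream sequence (Acadm, Acadvl, Cd36, Cpt1a, Echs1 and Ucp3) and in 14.0% of all 32851 windows of the same length. The full element AGGTCANAGGTCA, 2 copies of it with 1 base between them, was present in 0 of the 30 and in 0.0335% of all windows. Cpt1b, Crat, Acaa2, Decr1, Cyp4a10, Cyp4a14, Angptl4 and Vnn1 had no entry.

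Per unit of gene length, most of the set had its highest median in the heart. A smaller group, peroxisomal and omega-oxidation genes among it, had its highest median in the kidney. Levels between genes and tissues are the deposited FPKM (fragments scaled to gene length and library size), given as lowest, median and highest over all samples of a tissue (25 kidney, 25 heart and 24 visceral fat samples). The median was highest in heart for 25 of the 38 genes, in kidney for 9 and in visceral fat for 4, and the top tissue did not overlap the next one for 10, 3 and 0 of these. No share over all genes was counted for these numbers, so they do not set the members apart from other genes. The ranges include the libraries that stood apart, whose part in the overlaps was not tested.

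Among the uptake and shuttle genes, Fabp3, the fatty acid binding protein of heart and muscle, had 2189, 3606 and 7616 FPKM in heart, 79.1, 115 and 257 FPKM in kidney and 0, 2.94 and 180 FPKM in visceral fat. Cpt1a and Cpt1b are the isoforms of the outer-membrane enzyme that commits fatty acids to oxidation, and their levels ran in opposite order across kidney and heart. Cpt1a had 41.5, 90.2 and 140 FPKM in kidney, 8.69, 14.8 and 20.8 FPKM in heart and 7.95, 15.1 and 62.2 FPKM in visceral fat. Cpt1b, the muscle isoform, had 0, 0.722 and 1.29 FPKM in kidney, 4.21, 18.6 and 22.4 FPKM in heart and 0.0801, 0.360 and 3.81 FPKM in visceral fat. The heart range of Cpt1b lay above both other tissues, and the kidney median of Cpt1a was the highest although its range met that of visceral fat. The fatty acid translocase Cd36 had medians of 436 FPKM in visceral fat, 349 FPKM in heart and 82.6 FPKM in kidney, and the acyl-CoA synthetase Acsl1 had 118, 84.5 and 12.4 FPKM in the same tissues. For both genes the visceral fat and heart ranges overlapped.

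The 11 beta-oxidation enzymes all had their highest median in heart. Hadha and Hadhb, the subunits of the mitochondrial trifunctional protein, had medians of 202 and 249.1 FPKM in heart, 42.7 and 42.0 FPKM in visceral fat and 28.2 and 26.3 FPKM in kidney, and the heart ranges overlapped neither other tissue. These genes lie head to head on chromosome 5, 85 bases apart. Hadh, the short-chain dehydrogenase, overlapped between heart (77.3 to 162 FPKM) and kidney (80.1 to 144 FPKM). Peroxisomal genes had the other order: Ehhadh, the bifunctional enzyme, had medians of 161 FPKM in kidney, 22.6 FPKM in visceral fat and 5.26 FPKM in heart, and the thiolase Acaa1b had 180, 61.6 and 9.94 FPKM. Kidney and visceral fat overlapped for both, the lowest kidney sample having 47.5 and 123.7 FPKM and the highest visceral fat sample 54.1 and 147.7 FPKM. Eci2, an isomerase, was the exception, with 22.8 FPKM in kidney, 18.5 FPKM in visceral fat and 27.2 FPKM in heart.

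Of the receptors, Ppara had medians of 5.13 FPKM in kidney, 5.48 FPKM in heart and 1.71 FPKM in visceral fat, with overlapping ranges, and Ppard had 4.54, 8.42 and 6.72 FPKM, also overlapping. Among the other receptor targets, the fatty acid omega-hydroxylase Cyp4a10 had 69.2, 166 and 285 FPKM in kidney, 0, 0.187 and 29.8 FPKM in heart and 0, 0.0778 and 7.42 FPKM in visceral fat. Vnn1, a pantetheinase, had a kidney median of 26.8 FPKM against 0.0691 FPKM in heart and 0.635 FPKM in visceral fat. Pdk4, the kinase that shuts pyruvate dehydrogenase, had 32.9, 168.5 and 490.1 FPKM in heart, 0.372, 3.85 and 9.38 FPKM in kidney and 1.69, 5.07 and 47.8 FPKM in visceral fat. The mitochondrial carrier Ucp3 had medians of 20.9 FPKM in heart, 7.66 FPKM in visceral fat and 0.0771 FPKM in kidney. Cyp4a10 shares 96.1% of 1593 aligned bases with Cyp4a31 and 97.2% of 1530 with Cyp4a32, Acaa1a shares 96.6% of 1428 with Acaa1b, and Acot1 shares 95.1% of 1274 with Acot2, so how the authors' counting split reads between such copies is uncertain. The summed FPKM of the 38 genes in Sham mice was 9899 ± 2051 in heart, 2671 ± 216 in kidney and 2011 ± 1059 in visceral fat (mean ± SD, n = 5 each). Fabp3 alone gave 5037 ± 1684 of this in heart, 118 ± 16.7 in kidney and 11.3 ± 19.2 in visceral fat, so the heart sum rests largely on that gene. Etfb gave 519 ± 446 in Heart Sham, against a median of 165 FPKM over all hearts.

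**Figure D1:**
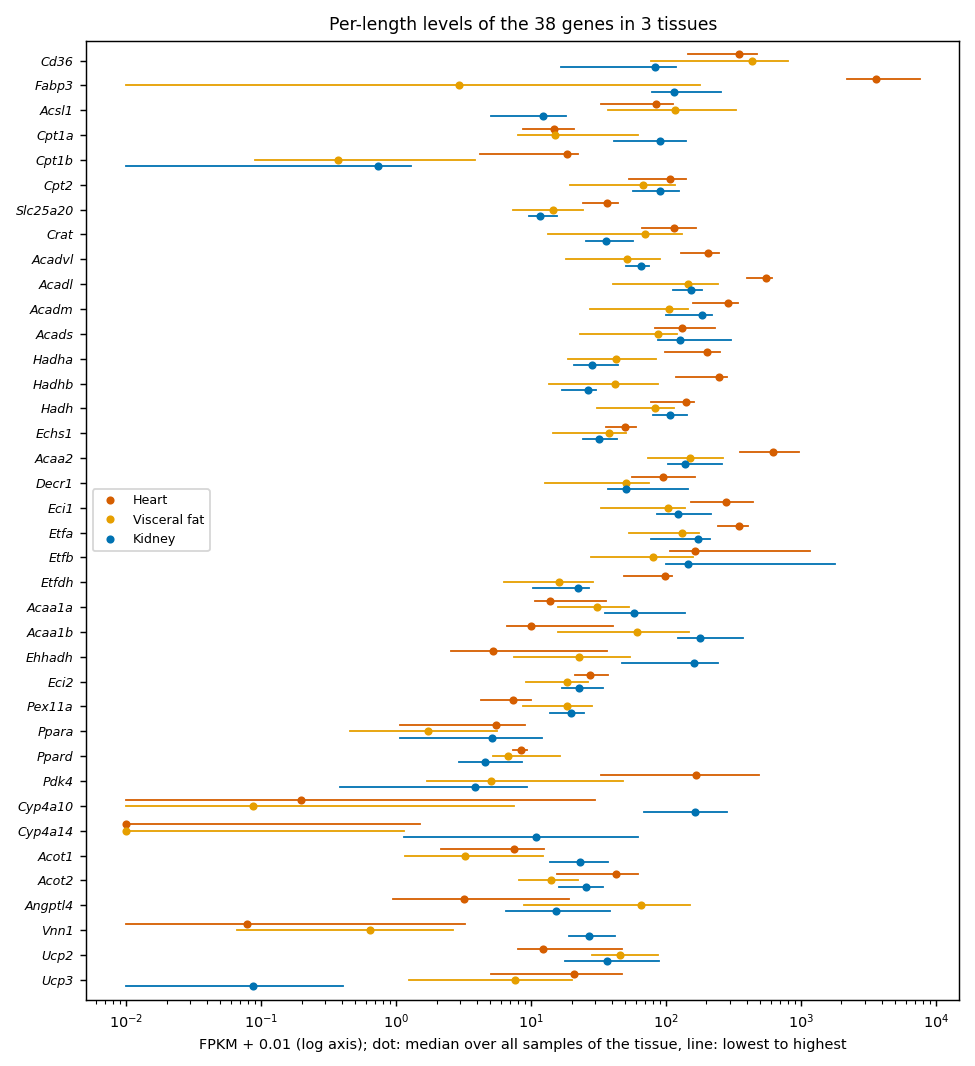
Deposited FPKM of the 38 genes on a log axis, with 1 row per gene, a dot for the median over all samples of a tissue and a line from the lowest to the highest sample (25 heart, 24 visceral fat and 25 kidney samples). Most dots of the uptake, beta-oxidation and flavoprotein rows are rightmost for heart, while Cyp4a10, Vnn1, Ehhadh, Acaa1a, Acaa1b and Cpt1a are rightmost for kidney.

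Between the Sham groups, tested on counts with edgeR's quasi-likelihood test, 32 of 38 members differed between heart and kidney, 20 higher and 12 lower in heart, beside 58.7% of all 19180 genes. Between heart and visceral fat 29 of 38 differed, 23 higher and 6 lower in heart, beside 57.1% of all genes. Between visceral fat and kidney 27 of 38 differed, 9 higher and 18 lower in fat, beside 51.5% of all genes. These counts include genes too low to test within 1 of the tissues alone (Ucp3 in kidney, Vnn1 in heart, and Cyp4a14 in heart and in visceral fat), which entered this fit through the tissues where they are high, so no fold is given for them. Of the other members, the largest positive log2 fold changes in heart against kidney were 5.32 ± 0.74 (SE) for Fabp3 and 4.25 ± 0.51 for Cpt1b, and the largest negative ones were -4.93 ± 0.95 for Cyp4a10 and -4.18 ± 0.43 for Ehhadh. Cyp4a10 ran from 0 to 29.8 FPKM and Ehhadh from 4.80 to 36.9 FPKM in Heart Sham, against medians of 0.187 and 5.26 FPKM over all hearts. Heart Sham 2 and 3 held the proximal tubule markers given above, and visceral fat Sham the epididymis markers. Their part in these folds was not tested. Leaving out any 1 Sham sample gave 31 to 34, 27 to 30 and 25 to 31 called members in the comparisons, in the order above. The median of all 38 members was 0.68 in heart against kidney, where that of all genes was -0.0052. Hadh, Eci2, Cpt2, Acadm, Acads and Acot2 did not pass in that comparison (adjusted p 0.0534 to 0.468).

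After partial nephrectomy the kidney held relatively less RNA of Ppara, of Cpt1a and of Cd36, and more of Ppard, of the thioesterases Acot1 and Acot2 and of the mitochondrial carrier Ucp2. These were 7 of the 37 members tested (Ucp3 was too low), 4 higher and 3 lower in PNx than in Sham, beside 16.8% of all 16307 genes (9.25% higher and 7.56% lower). Fitted on the PNx and Sham samples alone, 3 of the 7 passed, Acot1, Ppard and Ucp2, and the adjusted p of Acot2, Cpt1a, Ppara and Cd36 was 0.0651 to 0.0749. The beta-oxidation enzymes, the electron transfer flavoprotein and the peroxisomal genes gave no call. The median log2 fold change was 0.08 over the members and 0.05 over all genes, 22 members being above 0 and 15 below. In 6 of the 37 members the PNx and Sham samples did not overlap (3 higher and 3 lower), which held for 12.9% of all genes. The counts of called and of non-overlapping members are near the shares over all genes and do not set the members apart. Ppara, Cpt1a and Cd36 also did not pass with the gene-length covariate or without the libraries that the index sets apart, as given below.

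**Figure D2:**
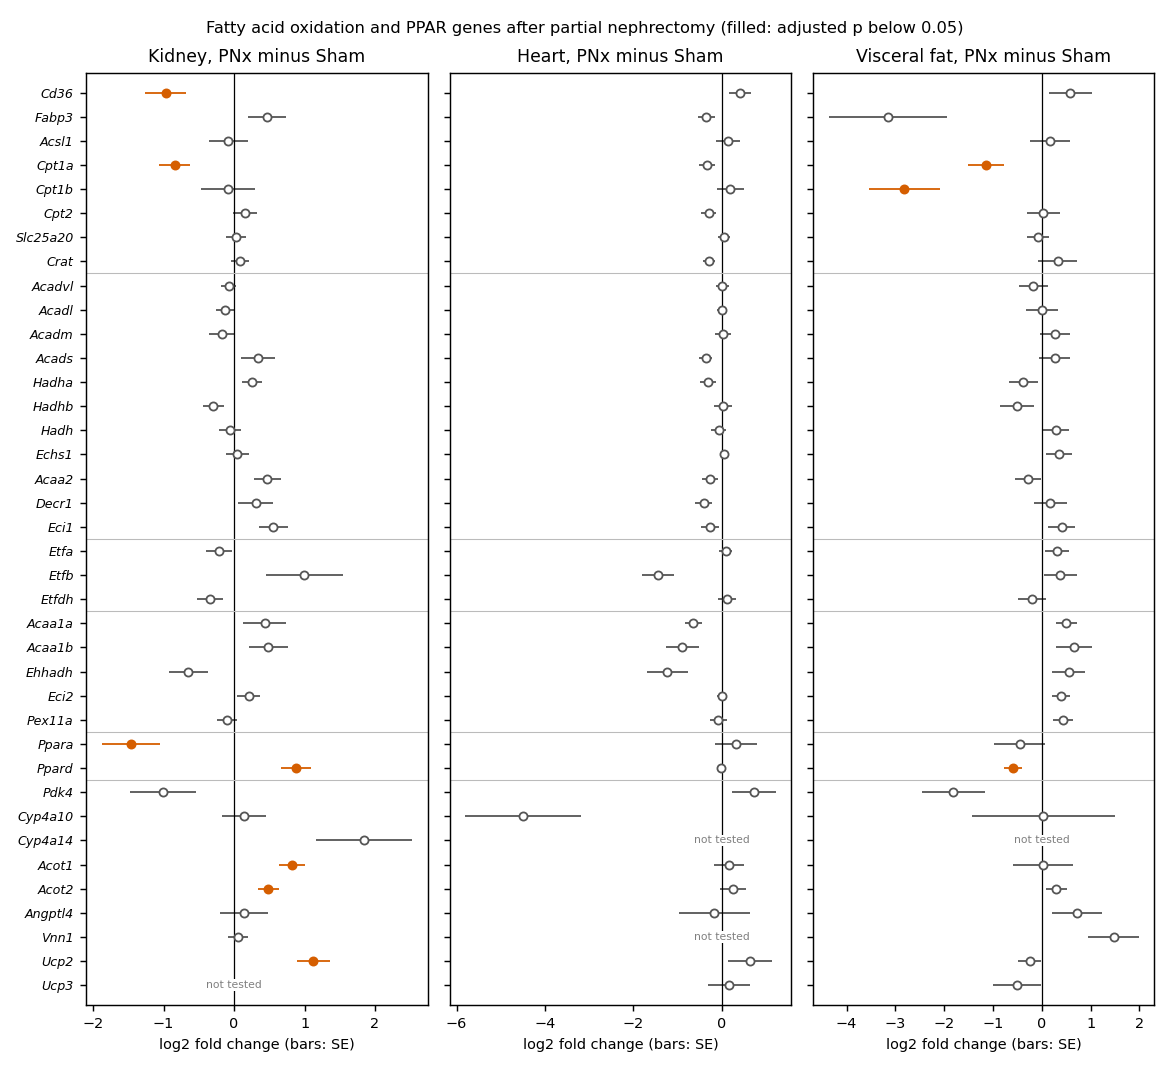
Log2 fold change of each member in PNx minus Sham (edgeR, bars are SE) in kidney, heart and visceral fat, with rows grouped by role, filled points for an adjusted p below 0.05 and a different axis range in each panel. Kidney has 7 filled points on both sides of 0, heart has none and visceral fat has 3, all below 0.

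The receptors moved in opposite directions in the kidney. Ppara (ENSMUSG00000022383, chromosome 15, 85734983 to 85802819, GRCm38) had 22.1, 29.2, 9.86, 4.27 and 4.77 CPM in PNx, against 41.3, 39.6, 30.6, 48.3 and 37.5 CPM in Sham. Every PNx sample lay below every Sham sample, PNx 3, 4 and 5 furthest. Its log2 fold change was -1.47 ± 0.41 (SE; 2.76-fold lower, adjusted p = 0.0283, n = 5 and 5). Ppard (ENSMUSG00000002250, chromosome 17, 28232700 to 28301474) had 31.6, 37.8, 27.1, 37.1 and 22.6 CPM in PNx, against 17.3, 18.8, 15.4, 15.7 and 17.9 CPM in Sham. All PNx samples were above all Sham samples, with a log2 fold change of 0.88 ± 0.22 (1.84-fold higher, adjusted p = 0.019). Without Sham 4 the adjusted p of Ppard was 0.0524 at a log2 fold change of 0.85. The call of Ppara was lost without any 1 of PNx 3, 4 and 5 and Sham 1, 2 and 4, with adjusted p from 0.0535 to 0.104 and log2 fold changes from -1.47 to -1.24.

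Of the 8 uptake and shuttle genes, 2 fell and 0 rose, beside 7.56% of all genes called lower. Cpt1a (ENSMUSG00000024900, chromosome 19, 3322334 to 3385733) had 400, 448, 192, 228 and 276 CPM in PNx, against 578, 537, 477, 624 and 553 CPM in Sham. No PNx sample reached the lowest Sham sample, and PNx 3, 4 and 5 were the lowest of all. The log2 fold change was -0.84 ± 0.22 (1.79-fold lower, adjusted p = 0.0229). Cd36 (ENSMUSG00000002944, chromosome 5, 17781690 to 17888801) had 317, 306, 64.6, 150 and 170 CPM in PNx, against 350, 434, 435, 440 and 320 CPM in Sham, again without overlap although PNx 1 came close to Sham 5. Its log2 fold change was -0.97 ± 0.30 (1.96-fold lower, adjusted p = 0.0364). Cpt1a passed no longer without PNx 3, 4 or 5 or Sham 4 (adjusted p 0.0517 to 0.0893, log2 fold changes -0.82 to -0.72), nor did Cd36 without PNx 3, 4 or 5 or Sham 1, 2, 3 or 4 (adjusted p 0.0606 to 0.108, log2 fold changes -1.01 to -0.76). Fabp3, Acsl1, Cpt1b, Cpt2, Slc25a20 and Crat did not pass.

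Of the 9 other receptor targets 8 were tested, and 3 rose, beside 9.25% of all genes called higher. Ucp2 (ENSMUSG00000033685, chromosome 7, 100493337 to 100502020), a mitochondrial uncoupling protein, had 297, 281, 665, 360 and 421 CPM in PNx, against 196, 155, 201, 176 and 200 CPM in Sham. The groups did not overlap and PNx 3 was the highest. The log2 fold change was 1.12 ± 0.23 (2.18-fold higher, adjusted p = 0.0083), but Ucp2 overlaps Dnajb13 on the other strand, and the strand setting of the counts is not given in the sources used here. Acot1 (ENSMUSG00000072949, chromosome 12, 84009490 to 84018371), the cytosolic enzyme that frees fatty acids from coenzyme A, had 111, 119, 126, 147 and 101 CPM in PNx, against 82.0, 58.5, 73.6, 67.0 and 61.4 CPM in Sham, with no overlap and a log2 fold change of 0.82 ± 0.18 (1.77-fold higher, adjusted p = 0.0113). Acot2 (ENSMUSG00000021226, chromosome 12, 83987861 to 83993873), its mitochondrial neighbour 15616 bases away, had 66.7, 77.7, 77.2, 76.8 and 54.1 CPM in PNx, against 59.5, 43.9, 49.7, 47.4 and 51.5 CPM in Sham. PNx 5 lay below Sham 1, so these groups overlapped, and the log2 fold change was 0.48 ± 0.15 (1.40-fold higher, adjusted p = 0.0389). That call was lost without PNx 3 or 4 or any 1 Sham sample (adjusted p 0.0532 to 0.132, log2 fold changes 0.44 to 0.55), while the calls of Ucp2 and Acot1 passed without each single sample.

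Members that did not pass in the kidney spanned both directions. Cyp4a14, an omega-hydroxylase, had 51.9, 48.7, 173, 29.5 and 23.3 CPM in PNx, against 51.4, 3.02, 21.96, 7.91 and 5.62 CPM in Sham, and its log2 fold change of 1.84 ± 0.69 gave an adjusted p of 0.0584. The groups overlapped through Sham 1, while Cyp4a10, its neighbour 22121 bases away, had 211 to 500 CPM in PNx and 196 to 622 CPM in Sham. Among the enzymes, Eci1, an enoyl-CoA isomerase, had 130, 119, 230, 198 and 234 CPM in PNx, against 154, 110, 123, 125 and 107 CPM in Sham (log2 fold change 0.56 ± 0.21, adjusted p = 0.0577), its higher PNx values being those of samples 3, 4 and 5. The thiolase Acaa2 gave 0.47 ± 0.19 (adjusted p = 0.0739). Etfb, the small subunit of the flavoprotein, had 165, 135, 415, 358 and 515 CPM in PNx, against 159, 146, 178, 160 and 154 CPM in Sham (log2 fold change 0.998, adjusted p = 0.160), and again samples 3, 4 and 5 were the high ones. Ehhadh of the peroxisome had 589, 591, 152, 355 and 291 CPM in PNx, against 748, 603, 558, 631 and 566 CPM in Sham (log2 fold change -0.65 ± 0.28, adjusted p = 0.0829). Next in their roles came Etfdh, which passes the electrons on to ubiquinone, at -0.34 ± 0.19 (adjusted p = 0.155), and Acaa1b at 0.48 ± 0.28 (0.182).

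The gene-length index moved with these values, and its part in them was not tested beyond the alternatives that follow. Without Kidney PNx 3, 4 and 5 and control cells 4 and 5, which leaves PNx 1 and 2 against 5 Sham samples, 0 of the 7 calls passed. Of the members higher in PNx, Ppard then gave a log2 fold change of 1.02 (adjusted p = 0.101), Acot1 0.74 (0.105), Acot2 0.51 (0.279) and Ucp2 0.63 (0.317). Of those lower in PNx, Cpt1a gave -0.39 (adjusted p = 0.445), Ppara -0.61 (0.664) and Cd36 -0.35 (0.723). PNx 1 and 2 lay below every Sham sample for Ppara, Cpt1a and Cd36 and above every Sham sample for Ppard, Acot1, Acot2 and Ucp2. These 7 members were called with PNx 1 and 2 included, so this gives no separate support, and no share over all genes was counted for it. With the index as a covariate over all samples, 5 members passed, all higher in PNx, while Cpt1a gave -0.46 (adjusted p = 0.0502), Ppara -0.95 (0.0665) and Cd36 -0.63 (0.146). Proximal tubule markers (9 of 9 with counts) summed to 7592, 14730 and 18910 CPM (lowest, median and highest) in PNx and to 16090, 17600 and 20230 CPM in Sham, and macrophage markers (5 of 5) summed to 68.0, 161 and 1013 CPM in PNx and to 77.7, 80.7 and 101 CPM in Sham. Hepatocyte markers (4 of 4) summed to 222, 292 and 624 CPM in PNx and to 63.55, 82.1 and 145 CPM in Sham, without overlap. Pancreatic acinar markers did not overlap either, at 1.69 to 3.94 CPM in PNx (6 of 6 with counts) and 0 to 0.351 CPM in Sham (1 of 6). The part of these cell types in the 7 calls was not tested. Leaving out 1 sample moved the count of 7 members to 11 and 12 without PNx 1 and PNx 2, to 3 without PNx 3 or PNx 4, to 4 without PNx 5 or Sham 2 and to 2 without Sham 4.

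**Figure D3:**
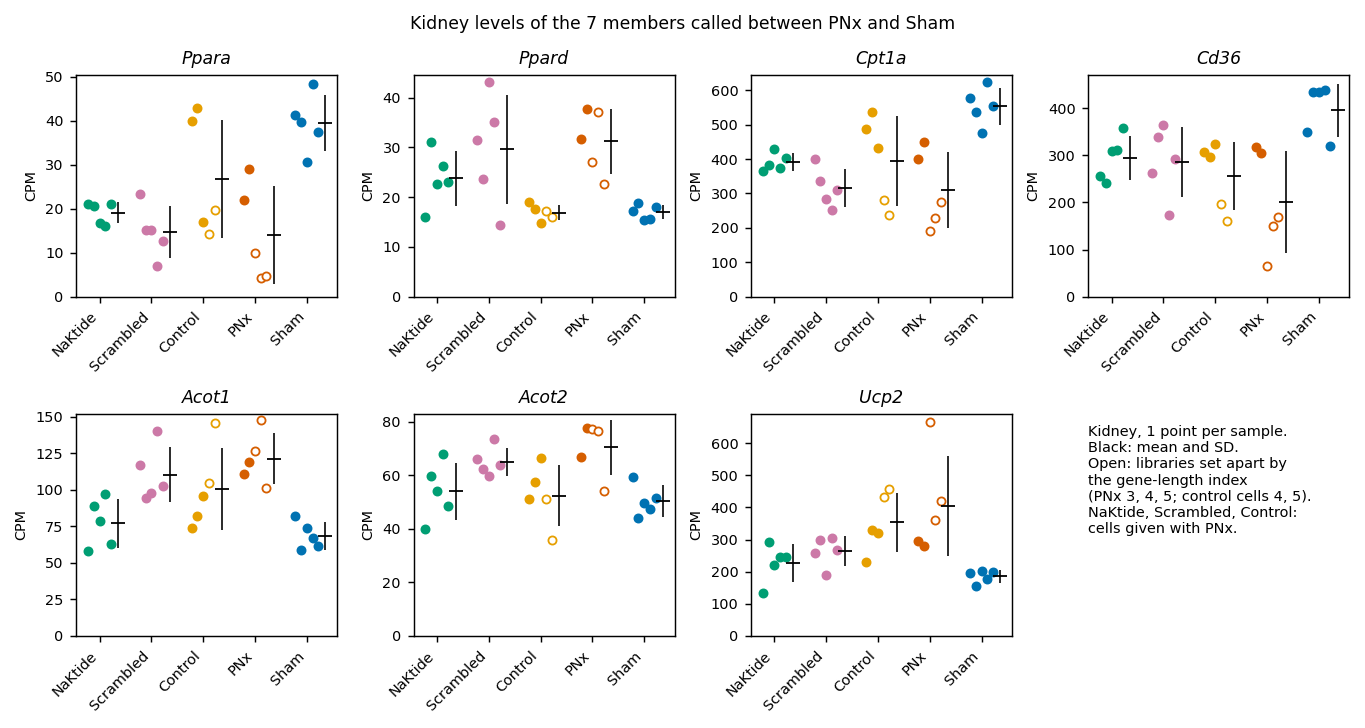
CPM of the 7 called members in each kidney sample, with black bars for mean and SD and open points for the libraries set apart by the gene-length index (PNx 3, 4 and 5 and control cells 4 and 5). Ppara, Cpt1a and Cd36 are lower in PNx than in Sham, with the open points lowest, and the other 4 are higher.

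Beyond the set, 59 of 62 further genes of the pathway were tested in the kidney, and 12 passed, 2 higher and 10 lower in PNx, beside the 16.8% of all genes called there (9.25% higher and 7.56% lower). This list was chosen with earlier results of these data known, so its count gives no separate support for a change of the pathway. Its genes were not checked in the alternatives used for the members, such as leaving out the libraries set apart by the gene-length index. Acsl5, an acyl-CoA synthetase, had 112, 103, 98.6, 106 and 115 CPM in PNx, against 69.5, 65.6, 69.2, 64.1 and 70.4 CPM in Sham, without overlap (log2 fold change 0.65 ± 0.12, adjusted p = 0.00471). Slc22a5, the plasma membrane carnitine carrier, had 190, 210, 103, 180 and 238 CPM in PNx, against 374, 347, 344, 382 and 299 CPM in Sham, also without overlap (log2 fold change -0.92 ± 0.18, adjusted p = 0.00698). Lpl, which releases fatty acids from lipoproteins, gave -0.70 ± 0.16, Slc27a2, a fatty acid transport protein, gave -0.79 ± 0.19, and the omega-hydroxylases Cyp4a12a and Cyp4a12b gave -1.11 ± 0.34 and -1.19 ± 0.33. Oxct1, which activates ketone bodies, gave -0.49 ± 0.16 (adjusted p = 0.0441).

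Transplanted cells gave no called member in the kidney. NaKtide cells against scrambled cells gave 0 of 37 calls beside 0% of all genes with edgeR, and DESeq2 called 0 members. An unadjusted p under 0.05 was reached by 2 members and by 819 of all 16307 genes. NaKtide cells against PNx gave 0 of 37 beside 0% (DESeq2 0 members), with 8 members and 3116 genes at an unadjusted p under 0.05. Control cells against PNx gave 0 of 37 beside 0% (DESeq2 0 members), with 3 members and 1049 genes at that level. Scrambled cells against control cells gave 0 of 37 beside 0.0123% (DESeq2 1 member), with 9 members and 1753 genes at that level. Acot1 was the member of lowest p in both NaKtide comparisons. It had 58.1, 89.2, 78.5, 97.2 and 62.6 CPM with NaKtide cells, against 117, 94.0, 97.9, 140 and 102 CPM with scrambled cells, overlapping through NaKtide 4 (log2 fold change -0.52 ± 0.18, adjusted p = 0.876). Against the PNx samples given above, all 5 NaKtide samples were lower (log2 fold change -0.65, adjusted p = 0.258). Ppard had 14.8 to 19.0 CPM with control cells, below all 5 PNx samples (log2 fold change -0.88, adjusted p = 0.320), and 14.4 to 43.2 CPM with scrambled cells (log2 fold change 0.80 for scrambled against control cells, adjusted p = 0.223). Crat, which makes acetylcarnitine, had 191, 197, 161, 189 and 145 CPM with scrambled cells, against 195, 240, 246, 279 and 307 CPM with control cells (log2 fold change -0.52 ± 0.13, adjusted p = 0.179). It was the 1 call of DESeq2 there (adjusted p = 0.00808), and control cells 4 and 5, which the gene-length index sets apart, had its highest values. Cyp4a14 and Pex11a with NaKtide against scrambled cells (-1.64 and -0.28), Ucp2 and Eci1 with NaKtide cells against PNx (-0.83 and -0.61), Acot2 and Ppara with control cells against PNx (-0.41 and 0.95), and Etfb with scrambled against control cells (-1.66) also stood among the 3 lowest p of their comparisons, with adjusted p of 0.258 to 0.879.

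In the heart, partial nephrectomy gave no called member: 0 of 36 passed with edgeR, beside 0.126% of all 15091 genes (0.0133% higher and 0.113% lower). An unadjusted p under 0.05 was reached by 7 members and by 2387 of all genes. DESeq2 called 4 members, all lower in PNx, and its share over all genes is not given here. Cyp4a14 and Vnn1 were too low to test. The median log2 fold change was -0.0055 over the members and -0.0034 over all genes. The members of lowest p were Etfb, Cyp4a10, Acaa1a and Ehhadh. Etfb had 168, 153, 168, 225 and 182 CPM in PNx, against 225, 728, 1124, 195 and 166 CPM in Sham (log2 fold change -1.44 ± 0.37, adjusted p = 0.109). The peroxisomal thiolase Acaa1a had 40.4, 47.0, 51.0, 69.9 and 51.2 CPM in PNx, against 65.2, 105, 130, 58.8 and 49.7 CPM in Sham (log2 fold change -0.64 ± 0.19, adjusted p = 0.153). Cyp4a10 had 0.120, 0.359, 0.257, 1.78 and 0 CPM in PNx, against 0.406, 5.43, 51.4, 0 and 0.329 CPM in Sham (log2 fold change -4.49 ± 1.32, adjusted p = 0.152). In each of these genes the groups overlapped and the high values were those of Sham 2 and 3, the hearts with the highest proximal tubule markers and the highest gene-length index. Proximal tubule markers summed to 9.53 to 19.0 CPM in PNx and to 26.2 to 3297 CPM in Sham, and the index was -0.72 to -0.09 in PNx, against 0.22 and 0.07 in Sham 2 and 3 and -0.74 to -0.51 in the other Sham hearts. With the index as a covariate the log2 fold change was -0.94 for Etfb (adjusted p = 0.0778), -0.50 for Acaa1a (0.0869) and -2.65 for Cyp4a10 (0.243). The part of the markers and of the index in these values was not tested beyond these alternatives. Without those 2 samples the log2 fold change was -0.15 for Etfb, -0.18 for Acaa1a and 0.79 for Cyp4a10, and 0 members passed. The count was 1 without Sham 1 or Sham 4 and 3 without Sham 5.

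**Figure D4:**
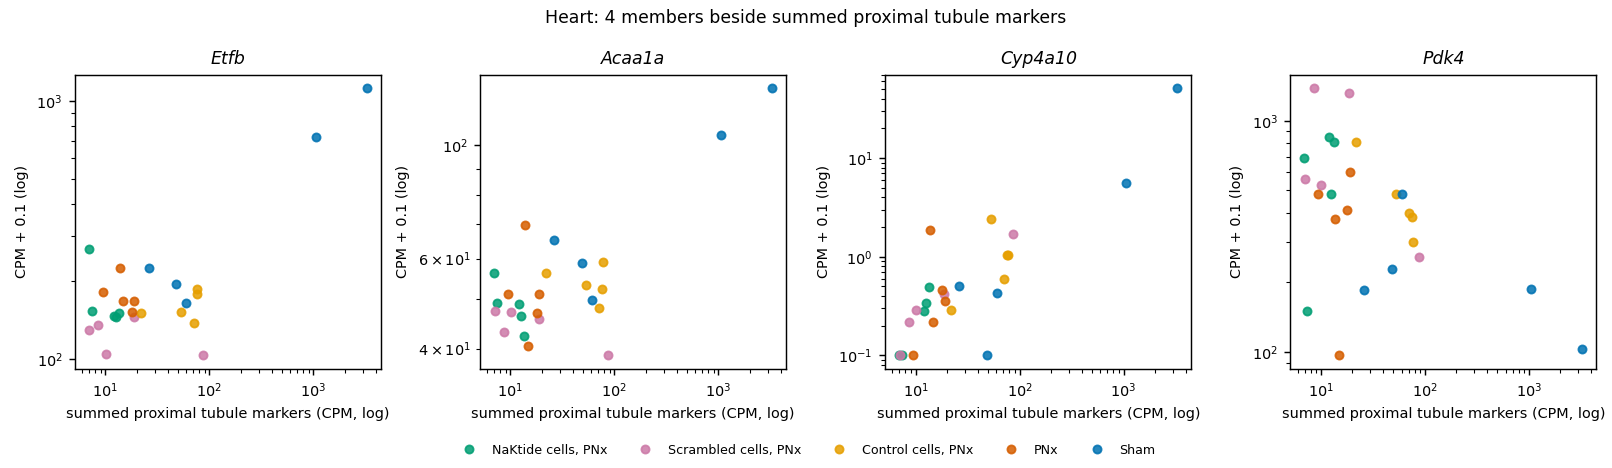
CPM of Etfb, Acaa1a, Cyp4a10 and Pdk4 in each heart sample (log axis, with a small constant added to show zeros) against the summed CPM of 9 proximal tubule markers (log axis), coloured by arm. The 2 Sham hearts at 1064 and 3297 CPM of markers are the highest for Etfb, Acaa1a and Cyp4a10 and are among the lowest for Pdk4.

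Pdk4, Fabp3 and the 2 receptors did not pass in the heart. Pdk4 had 96.6, 412, 600, 378 and 483 CPM in PNx, against 185, 187, 103, 230 and 483 CPM in Sham, and its log2 fold change of 0.73 gave an adjusted p of 0.485. The groups overlapped at both ends, PNx 1 being the lowest heart and Sham 5 as high as PNx 5 at 3 digits. Fabp3 had 2325, 2738, 2493, 3253 and 2294 CPM in PNx, against 2729, 4994, 3948, 2576 and 2410 CPM in Sham (log2 fold change -0.35 ± 0.20, adjusted p = 0.387). Ppara had 4.36 to 21.7 CPM in PNx and 6.52 to 15.2 CPM in Sham (log2 fold change 0.33). Ppard had 27.8 to 32.3 CPM in PNx and 27.0 to 32.6 CPM in Sham. The enzymes of lowest p were Acads, the short-chain dehydrogenase, at -0.36 ± 0.14 (adjusted p = 0.232) and Decr1, the dienoyl-CoA reductase, at -0.41 ± 0.19 (0.303), and those of the shuttle were Crat at -0.28 ± 0.14 (0.34) and Cpt1a at -0.33 ± 0.18 (0.361).

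Across the 25 hearts, Pdk4 ran together with Ucp3, the mitochondrial carrier of muscle. Both spanned a wide range within every arm: Pdk4 had 256 to 1386 CPM with scrambled cells and Ucp3 21.0 to 120 CPM, and the same 2 samples, scrambled cells 1 and 2, were highest for both. On log2 CPM, Pearson's r was 0.886 and Spearman's rho 0.849 (permutation test over 25 samples, p = 1e-05 for each, the smallest it can give; adjusted over 6 relations, 4e-05 and 6e-05). Without the 2 samples farthest from the median of Pdk4, Sham 3 and PNx 1, r was 0.829, and with each arm centred on its mean it was 0.920. Acot2 gave r = 0.748 and rho = 0.653 (permutation test, adjusted p = 4e-05 and 0.00116), and Acot1 gave r = 0.722 and rho = 0.726 (4e-05 and 0.00018). Angptl4, an inhibitor of lipoprotein lipase, gave r = 0.482 and rho = 0.425 (permutation test, adjusted p = 0.0179 and 0.0465), Ucp2 gave -0.497 and -0.420 (0.0173 and 0.0465) and Cyp4a10 gave -0.452 and -0.361 (0.0223 and 0.077). These 6 relations were chosen after the values were seen, and samples of different arms were pooled.

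Transplanted cells gave no called member in the heart either. With edgeR 0 of 36 passed for NaKtide cells against scrambled cells, NaKtide cells against PNx, control cells against PNx and scrambled cells against control cells, beside 0% of all genes in each. DESeq2 called 0 members in all 4 comparisons. In that order, 1, 0, 2 and 2 members had an unadjusted p under 0.05, beside 903, 1249, 1261 and 1098 of all 15091 genes. Cpt1a had 51.3, 54.2, 40.6, 39.2 and 38.4 CPM with NaKtide cells, against 72.1, 69.8, 56.7, 53.4 and 53.7 CPM with scrambled cells, overlapping through NaKtide 2 and the lowest scrambled samples (log2 fold change -0.45 ± 0.17, adjusted p = 0.721). Ppard had 31.4 to 34.1 CPM with control cells, against 27.8 to 32.3 CPM in PNx (log2 fold change 0.17, adjusted p = 0.584). Echs1, the short-chain hydratase, was among the 3 members of lowest p in all 4 comparisons, with log2 fold changes of 0.19, -0.18, -0.17 and -0.20 in the same order.

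In visceral fat, the fit of all 5 arms called 3 members lower after partial nephrectomy and 0 higher: both isoforms of the outer-membrane carnitine palmitoyltransferase and Ppard. That was 3 of the 37 tested (Cyp4a14 was too low), beside 13% of all 17552 genes (4.83% higher and 8.18% lower). The calls depended on the fit: DESeq2 called 6 members (its share over all genes is not given here), and only Cpt1b passed with no filter on low counts. With the PNx and Sham samples alone 0 passed, where Cpt1a gave -1.21 (adjusted p = 0.131) and Ppard -0.64 (0.162). Cpt1b was too low to test there, so its call rests on the fit of 5 arms. The median log2 fold change was 0.17 over the members and 0.0077 over all genes, and 22 members were above 0. Cpt1b (ENSMUSG00000078937, chromosome 15, 89416405 to 89425863) had 1.15, 0.727, 0.454, 0.912 and 0.522 CPM in PNx, against 0.326, 3.51, 9.01, 1.75 and 11.9 CPM in Sham. Sham 1 lay below all PNx samples and the other 4 Sham samples above them, with a log2 fold change of -2.82 ± 0.74 (7.04-fold lower, adjusted p = 0.0148). Cpt1a had 78.8, 53.3, 84.8, 63.9 and 76.3 CPM in PNx, against 323, 83.6, 64.7, 204 and 114 CPM in Sham, overlapping through Sham 2 and 3 (log2 fold change -1.14 ± 0.36, adjusted p = 0.041). Ppard had 33.2, 37.99, 34.7, 40.3 and 36.2 CPM in PNx, against 91.5, 50.1, 37.0, 52.0 and 43.9 CPM in Sham, overlapping through Sham 3 (log2 fold change -0.59 ± 0.19, adjusted p = 0.0412).

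Other members fell short of the threshold in visceral fat. Vnn1 had 3.45, 2.60, 3.48, 1.67 and 1.96 CPM in PNx, against 0.163, 1.58, 1.10, 1.16 and 0.703 CPM in Sham (log2 fold change 1.47 ± 0.52, adjusted p = 0.0628). It was the 1 member whose PNx and Sham samples did not overlap, where 5.65% of all genes did not. Pdk4 had 17.4, 6.85, 26.8, 37.4 and 17.6 CPM in PNx, against 7.16, 55.9, 177, 32.6 and 98.2 CPM in Sham (log2 fold change -1.81 ± 0.64, adjusted p = 0.0658). Fabp3 had 1.15, 3.01, 0.454, 0.456 and 0.914 CPM in PNx, against 0.326, 0.175, 44.5, 4.80 and 5.63 CPM in Sham (log2 fold change -3.16 ± 1.21, adjusted p = 0.0881), its highest value being that of Sham 3. The 5 peroxisomal members had positive log2 fold changes of 0.39 to 0.65, and none passed. Of the mitochondrial enzymes, Eci1 gave 0.40 ± 0.27 (adjusted p = 0.356) and Hadhb -0.51 ± 0.34 (0.369), and Ppara gave -0.46 ± 0.52 (0.615).

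Markers of other tissues differed between the same 2 arms, though not in the same samples for every gene. Their part in the calls was not tested beyond leaving samples out. Skeletal muscle markers summed to 13.2 to 28.1 CPM in PNx and to 8.46, 35.2, 10870, 90.4 and 34.1 CPM in Sham, all 9 of them being lower in PNx at the threshold. Epididymis markers summed to 0 to 22.2 CPM in PNx and to 6351, 75.6, 3428, 5866 and 2785 CPM in Sham, and all 5 were lower in PNx. Adipocyte markers (6 of 6 with counts) summed to 9706 to 12860 CPM in PNx and to 2220, 13880, 7631, 1197 and 6209 CPM in Sham. Macrophage markers (5 of 5 with counts) summed to 395 to 888 CPM in PNx and to 159 to 396 CPM in Sham. Without Sham 3 and the scrambled-cell samples 1, 2 and 4, which held the most muscle markers, the same number of members fell, with log2 fold changes of -2.53 for Cpt1b (adjusted p = 0.0241), -1.29 for Cpt1a (0.0272) and -0.65 for Ppard (0.0231). Without Sham 1 and 4, which held the least adipocyte markers, 4 members fell: Cpt1b gave -3.42 (adjusted p = 0.00499), Hadhb -1.02 (0.00801), Hadha -0.84 (0.0248) and Pdk4 -2.40 (0.0268), while Cpt1a gave -0.29 (0.738) and Ppard -0.26 (0.461). The calls of Cpt1a and Ppard were also lost without any 1 PNx sample, Sham 1 or Sham 4 (adjusted p 0.0565 to 0.21), where Sham 1 alone moved Cpt1a to -0.71 and Ppard to -0.33. Cpt1b was lost without Sham 5 (-2.29, adjusted p = 0.0519), and the count of called members was 9 without Sham 2 and 1 without any 1 PNx sample or Sham 4.

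**Figure D5:**
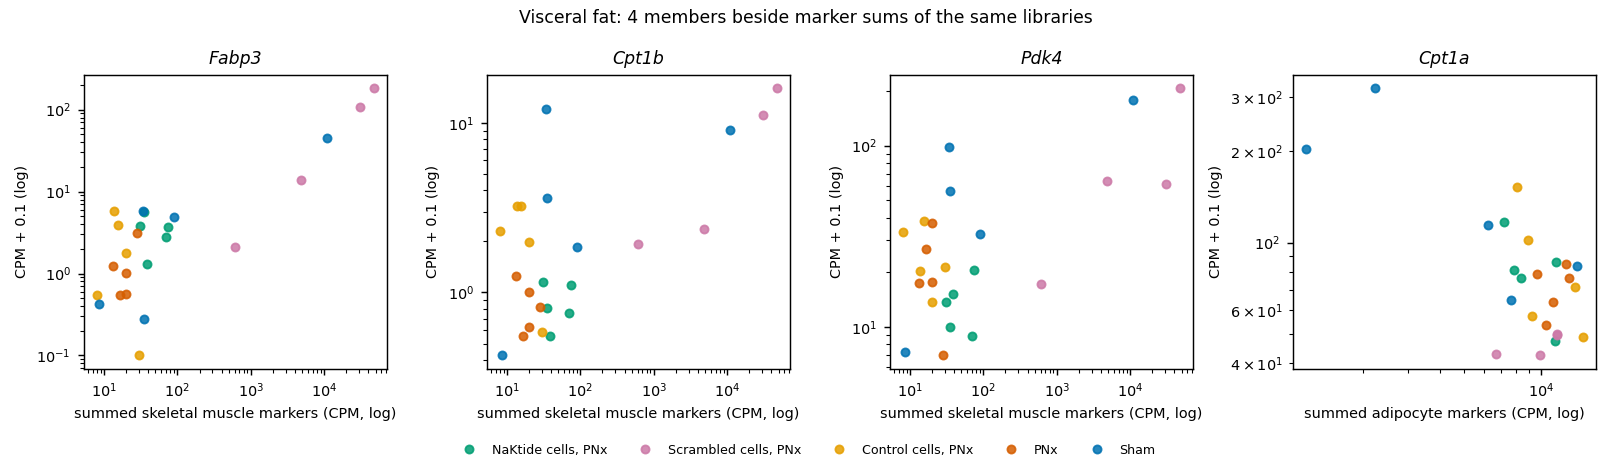
CPM of Fabp3, Cpt1b and Pdk4 against summed skeletal muscle markers, and of Cpt1a against summed adipocyte markers, in each visceral fat sample (log axes, with a small constant added to show zeros), coloured by arm. The samples with the most muscle markers, scrambled cells 2 and 4 and Sham 3, have the highest Fabp3, and the 2 Sham samples with the least adipocyte markers have the highest Cpt1a.

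Of the 62 further pathway genes, 59 were tested in visceral fat and 6 passed, 2 higher and 4 lower in PNx, beside the 13% of all genes called there (4.83% higher and 8.18% lower). They were not checked in the alternatives used for the members, and the part of the epididymis and muscle markers of the Sham samples was not tested. Slc22a5 gave a log2 fold change of 0.60 ± 0.19, the opposite sign to its kidney value, and Hsd17b10, a mitochondrial dehydrogenase, gave 0.76 ± 0.25. The peroxisomal oxidase Acox3 gave -1.88 ± 0.32, and the acyl-CoA synthetases Acsl4, Acsl3 and Acsl6 gave -1.64 ± 0.39, -1.31 ± 0.33 and -4.64 ± 1.25. In the heart 55 were tested and 0 passed with edgeR, where 7 had an unadjusted p under 0.05, beside 2387 of all 15091 genes.

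Between the transplant arms of visceral fat, NaKtide cells against scrambled cells gave 2 called members, both lower, of 37 tested, beside 2.36% of all genes (0.239% higher and 2.12% lower). With only these 2 arms in the fit neither passed (adjusted p 0.073 and 0.0862), and DESeq2 called 4 members, its share over all genes not being given here. Cpt1b had 0.662, 1.06, 0.714, 0.457 and 1.003 CPM with NaKtide cells, against 2.28, 15.9, 1.84 and 10.9 CPM with scrambled cells, without overlap (log2 fold change -3.27 ± 0.75, adjusted p = 0.0207, n = 5 and 4). Pdk4 had 8.77, 13.6, 9.91, 15.1 and 20.5 CPM with NaKtide cells, against 63.9, 208, 17.2 and 61.3 CPM with scrambled cells, overlapping through scrambled 3 (log2 fold change -2.69 ± 0.68, adjusted p = 0.0383). Fabp3 had 1.22 to 5.53 CPM with NaKtide cells, against 13.9, 184, 2.03 and 106 CPM with scrambled cells, and did not pass (log2 fold change -4.50 ± 1.23, adjusted p = 0.0546). In 11 of the 37 members all NaKtide samples lay below all scrambled samples, where the groups did not overlap for 5.61% of all genes. Skeletal muscle markers moved with these values: they (9 of 9 with counts) summed to 30.9 to 74.5 CPM with NaKtide cells and to 4893, 47040, 612 and 30300 CPM with scrambled cells. Brown adipocyte markers summed to 21.7 to 101 CPM with NaKtide cells (4 of 5 with counts, Zic1 at 0), against 114 to 339 CPM with scrambled cells (5 of 5). The same list summed to 308.5 to 465.7 CPM in PNx hearts, with Ucp1 at 0, so this sum does not mark brown fat alone. Nuclear genes of mitochondrial proteins (7 of 7) summed to 3535 to 5030 CPM with NaKtide cells, against 5904 to 7286 CPM with scrambled cells, also without overlap. Pancreatic acinar markers (6 of 6) summed to 0.305 to 2.81 CPM with NaKtide cells, against 2.28 to 16970 CPM with scrambled cells. The part of these markers in the calls was not tested beyond leaving samples out. Without scrambled 1, 2 and 4, which leaves 1 scrambled sample assumed to vary like the other groups, 0 members passed, and the log2 fold changes were -1.24 for Cpt1b, -0.36 for Pdk4 and 0.69 for Fabp3. Cpt1b was lost without NaKtide 2, 3 or 4 or scrambled 2 or 4 (adjusted p 0.0594 to 0.0977), and Pdk4 without any 1 NaKtide sample or scrambled 2 or 4 (0.0567 to 0.193). The count was 1 without NaKtide 1 or 5, 0 without NaKtide 2, 3 or 4 or scrambled 2 or 4, 3 without scrambled 1 and 4 without scrambled 3.

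Scrambled cells against control cells gave 1 call of 37 in visceral fat, Fabp3, which rose, beside 2.41% of all genes (1.94% higher). It had the scrambled-cell values above, against 0, 1.69, 5.71, 0.443 and 3.76 CPM with control cells, overlapping through scrambled 3 (log2 fold change 4.99 ± 1.26, adjusted p = 0.041), and did not pass with only these 2 arms in the fit (adjusted p = 0.188) or with the second library kept apart (0.0587). Muscle markers of the control-cell samples summed to 8.13 to 30.0 CPM and acinar markers to 0 to 0.496 CPM, below the scrambled-cell values above, and their part was not tested beyond leaving samples out. Without the 3 muscle-rich scrambled samples it was -0.18, and the call was lost without any 1 control sample or without scrambled 2 or 4 (adjusted p 0.0645 to 0.137). Hepatocyte markers (4 of 4 with counts) summed to 57.2, 89.4, 3860, 84.8 and 6834 CPM with control cells, and Cyp4a10 was highest in the same samples, control cells 3 and 5, at 5.32 and 18.5 CPM. NaKtide cells against PNx gave 0 of 37 beside 0% of all genes (DESeq2 0 members), with 2 members and 652 of all 17552 genes at an unadjusted p under 0.05. Control cells against PNx gave 0 of 37 beside 0% (DESeq2 0 members), with 1 member and 442 genes at that level. Ehhadh had 32.2, 46.8, 30.2, 58.5 and 55.5 CPM with NaKtide cells, against 84.9, 53.7, 92.8, 117 and 101 CPM in PNx (log2 fold change -1.01, adjusted p = 0.969).

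Whether the log2 fold change of PNx against Sham differed between tissues was tested in 1 fit of all samples. Kidney and visceral fat differed for 4 of 38 members, 3 higher and 1 lower in kidney, beside 11.7% of all 19180 genes. Ppard differed most by p: it was higher in PNx in the kidney and lower in visceral fat, a difference of 1.41 ± 0.25 (adjusted p = 5e-05). That call passed without each of the 20 samples of the 4 groups. It also passed without the libraries set apart in all 3 tissues (1.65, adjusted p = 2.94e-05). That set held visceral fat Sham 3, the Sham sample there with the least Ppard, but not Sham 1 and 4, which held the least adipocyte markers. The difference was not refitted without Sham 1 and 4 together, where the visceral fat log2 fold change of Ppard was -0.26. The visceral fat Sham samples are those with the epididymis markers given above, whose part in this difference was not tested. Cpt1b differed by 2.73 ± 0.77 (adjusted p = 0.0134; lost without visceral fat Sham 5, 0.0517). Fabp3 differed by 3.54 ± 0.96 (adjusted p = 0.00961) and by 1.54 (0.266) without visceral fat Sham 3. Cd36 differed by -1.58 ± 0.51 (adjusted p = 0.0331), with adjusted p of 0.0516 to 0.0836 without Kidney PNx 3, 4 or 5, Kidney Sham 4, visceral fat PNx 3, 4 or 5 or visceral fat Sham 1 or 4. The count of members was 8 without visceral fat Sham 2.

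Kidney and heart differed for 5 of 38 members, all higher in kidney, beside 12% of all genes (8.28% higher): Etfb by 2.30 ± 0.61 (0.0172), Ppard by 0.84 ± 0.25 (0.0268), Cyp4a10 by 4.44 ± 1.40 (0.0314), Acaa1a by 0.99 ± 0.34 (0.0454) and Vnn1. Vnn1 was too low to test in the heart alone and entered this fit through the other tissues, so no tissue difference is read from it. All 5 were lost without Heart Sham 2 or Heart Sham 3 (adjusted p 0.0573 to 0.472), where Cyp4a10 without Heart Sham 3 gave 1.64. Ppard was also lost without Kidney PNx 4 (0.77, adjusted p = 0.0531), Cyp4a10 without Heart PNx 2, 3 or 5, Kidney PNx 3 or Kidney Sham 4, and Acaa1a without any 1 sample other than Heart PNx 4, Heart Sham 1, 4 and 5 and Kidney PNx 1 and 2. The count was 9 without Heart Sham 5, 8 without Kidney PNx 1 or 2, and 3 without Heart PNx 2, 3 or 5, Kidney PNx 3 or 4 or Kidney Sham 4. Without the libraries set apart in all tissues 0 passed, where Ppard gave 1.05 (adjusted p = 0.459), Etfb 0.02, Acaa1a -0.06 and Cyp4a10 -0.23. Visceral fat and heart differed for 7 of 38, 4 higher and 3 lower in fat, beside 9.41% of all genes (3.89% higher and 5.52% lower), Vnn1 again being 1 of them. Cpt1b differed by -3.05 ± 0.72 (adjusted p = 0.0034), and this passed without each single sample and without the libraries set apart (-2.31, adjusted p = 0.0154). Acaa1a (1.12), Acaa1b (1.52), Ehhadh (1.73), Pdk4 (-2.55) and Fabp3 (-2.82) passed with adjusted p of 0.0245 to 0.0485, and each was lost without some 1 sample. Acaa1a was lost without Heart PNx 1, Heart Sham 2 or 3, visceral fat PNx 2 or visceral fat Sham 1 or 4, and Ehhadh without Heart PNx 1, Heart Sham 3 (0.88), visceral fat PNx 4 or visceral fat Sham 1 or 4. Acaa1b was lost without Heart PNx 1, 2, 3 or 5, Heart Sham 2 or 3, visceral fat PNx 2 or 3 or visceral fat Sham 1 or 4. Pdk4 was lost without Heart PNx 3 or 5, Heart Sham 2 or 3, visceral fat PNx 2 or 5 or visceral fat Sham 3 or 5. Fabp3 was lost without any 1 sample other than visceral fat PNx 2 and visceral fat Sham 1, 2, 4 and 5, and gave -0.82 (adjusted p = 0.593) without visceral fat Sham 3. The count was 2 without Heart Sham 3, 3 without Heart PNx 1 or Heart Sham 2, and 4 without Heart PNx 3 or 5, visceral fat PNx 2 or visceral fat Sham 1 or 4.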

How the data were processed

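RNA of flash-frozen heart, kidney and visceral fat was extracted with a Qiagen RNeasy Plus Universal kit and sequenced as paired reads, per the labels. The deposited table of raw counts holds reads per Ensembl gene, and the deposited FPKM table was scaled by the authors to gene length and library size. Tools named in the submitters' processing notes, with no role or order, are HISAT2 2.1.0, Trimmomatic 0.38 and DESeq2 (1.20.0 and 1.20.1), and the build named is GRCm38. How reads were counted, with which annotation and strand setting, is not given in the sources used here.

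Second libraries of Kidney Sham 3 and visceral fat scrambled cells 3 were added to their partners (FPKM averaged). Counts were filtered (filterByExpr), scaled by TMM and tested with edgeR 4.0.16 (R 4.3.3) by its quasi-likelihood F test, 1 fit of 5 arms per tissue and 1 joint fit for tissue differences, with Benjamini-Hochberg adjustment over all genes and a threshold of 0.05. DESeq2 1.42.0, other scalings and filters, a replicate block, a gene-length covariate and left-out samples were tried as alternatives, and the edgeR fit was tested on simulated data. Counting error was not modelled apart from the spread between samples. The genes named are every called member and, in each role or comparison, the members of lowest p. The members and lists were chosen with earlier results of these data known. Coordinates are from GENCODE M21 on GRCm38, and near copies were aligned with BLAST 2.17.0. No comparison had every correlation of same-numbered deviations over 0.1, and samples were treated as unpaired, across tissues too. Such correlations cannot exclude that a number marks the same mouse in several tissues, which the labels do not state.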

Additional observations from a re-analysis of the deposited data

Results flagged for a closer look

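Of 126 groups of named members, 12 held a sample far from the others of its group, where chance flags about 1 in 20 groups. Heart PNx 1 was far from the other PNx hearts for 4 members: 385.6 CPM of Etfa, 180.8 CPM of Decr1, 299.9 CPM of Crat and 341.4 CPM of Echs1. Its gene-length index of -0.09 was the highest of the PNx hearts. Heart Sham 3, the heart with the most proximal tubule markers, stood far from the other Sham hearts with 51.36 CPM of Cyp4a10 and 90.0 CPM of Ehhadh, and Heart PNx 4 with 1.775 CPM of Cyp4a10. In visceral fat, Cyp4a10 was far above its group in control cells 5 at 18.51 CPM and in PNx 3 at 4.087 CPM, the samples with the most hepatocyte markers in their groups (6834 and 1704 CPM). Visceral fat Sham 1 had 91.45 CPM of Ppard and visceral fat PNx 2, whose gene-length index was -0.30 against -1.44 to -1.22 in the rest of its group, had 213.8 CPM of Etfb. Kidney NaKtide cells 4 had 60.87 CPM of Pex11a, in a group of narrow spread.

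For 16 values the test of the difference between tissues passed. Kidney minus heart, the log2 effect of PNx differed by 0.8409 for Ppard, 2.302 for Etfb, 0.9864 for Acaa1a, 3.4309 for Vnn1 and 4.4411 for Cyp4a10. Kidney minus visceral fat, it differed by 1.4117 for Ppard, -1.5791 for Cd36, 3.5396 for Fabp3 and 2.7271 for Cpt1b. Visceral fat minus heart, it differed by 1.5169 for Acaa1b, -2.5487 for Pdk4, 1.7343 for Ehhadh, -2.8243 for Fabp3, 1.1245 for Acaa1a, 4.8942 for Vnn1 and -3.0517 for Cpt1b. Vnn1 was too low to test in the heart alone, so no difference from the heart is read from its values. Heart Sham enters every difference from the heart and visceral fat Sham every difference from visceral fat, and both hold samples with markers of other tissues, whose part was not tested beyond leaving samples out.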

How the results depend on the processing

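Of 89 results for named members, 1420 recomputed values kept their direction and side of the threshold, 203 no longer passed, 31 newly passed and 21 changed sign. Results that did not pass in the main fit could not lose a call, so all 203 belong to those that did pass. Counts of called members stayed within 1.5 times in 298 cases and moved in 80. Where a library was left out, fewer samples entered the fit; for the other changes the cause was not tested.

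Kidney PNx against Sham gave 7 called members, 3 when fitted on 2 arms alone, 0 without the libraries set apart, 7 with a replicate block and 2 to 12 leaving out 1 sample. Its sign changed for Acaa1b (-0.0279 with the gene-length covariate, -0.0219 without the libraries set apart), Eci1 (-0.0024 without them) and Etfb (-0.389 and -0.0904). Kidney scrambled against control cells gave 0, 1 with DESeq2, and 2 with the covariate and 2 without the libraries set apart, where Etfb was 0.2745.

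Heart PNx against Sham gave 0, 4 with DESeq2 and 0 to 3 leaving out 1 sample. Without Sham 2 and 3, Cyp4a10 was 0.793 and Etfa -0.0824. Ppard, near 0, was 0.0234 with no filter and 0.0067, 0.0080 and 0.0309 without PNx 5, Sham 1 and Sham 5 (-0.0456 to 0.0309 over all left-out samples).

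Visceral fat PNx against Sham gave 3, 6 with DESeq2, 1 with no filter, 0 with only 2 arms, 0 with a replicate block (Cpt1b -2.38, adjusted p = 0.0567) and 1 to 9 leaving out 1 sample. Without Sham 1 and 4, Eci1 was -0.0045, Etfa -0.106 and Etfb -0.0292; without Sham 2, Ppara was 0.0137 (-0.702 to 0.0137 over all left-out samples). NaKtide against scrambled cells gave 2, 4 with DESeq2, 0 with 2 arms, 1 with a replicate block, 1 with second libraries kept apart, 0 without the muscle-rich samples (Fabp3 0.694) and 0 to 4 leaving out 1 sample. Scrambled against control cells gave 1, 2 with DESeq2, 0 with 2 arms, with a replicate block, with second libraries apart and without the muscle-rich samples (Fabp3 -0.175, Pdk4 -0.530), and 0 to 1 leaving out 1 sample.

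Kidney minus heart gave 5, 3 with no filter, 1 with a replicate block, 0 without the libraries set apart (Acaa1a -0.0572, Cyp4a10 -0.2296) and 0 to 9 leaving out 1 sample. Kidney minus visceral fat gave 4, 2 with a replicate block, 2 without those libraries and 3 to 8 leaving out 1 sample. Visceral fat minus heart gave 7, 4 with no filter, 4 with a replicate block, 1 without those libraries and 2 to 9 leaving out 1 sample. Correlations of same-numbered deviations ran from -0.748 to 0.722 over 73 pairs within tissues, and 14 of 73 samples correlated best with their own number. These values do not exclude that a number marks the same mouse across tissues. Cyp4a14, Vnn1 and Ucp3 were too low to test where stated, so depth limits what can be said of them there.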
